A study of Saccharomyces cerevisiae with 2 samples.

Results

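The Pir proteins (proteins with internal repeats) are a family of secreted, O-mannosylated proteins of the budding yeast Saccharomyces cerevisiae that are bound covalently to the glucan of the cell wall. The 4 members were taken by their systematic names, whatever their values: PIR1 (YKL164C), HSP150, also called PIR2 (YJL159W), PIR3 (YKL163W) and CIS3, also called PIR4 (YJL158C). They are 4 of 6207 gene features of the array. Each of the 4 had a value on both arrays, as had 44.1% of all features (2738).

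The RNA came from a mid2 mutant of the haploid strain BY4741, grown in rich medium at 24 °C. One part of a culture received 30 µg/ml Congo Red and was collected at 4 h, and each array set its RNA against RNA of the untreated part in 2 dyes. Congo Red is a dye that binds wall polymers and disturbs wall assembly, and Mid2 is a plasma membrane sensor of wall damage, so both RNAs of every ratio came from cells with that sensor mutated. There were 2 arrays with the dyes swapped, treated RNA carrying Cy3 on array 1 and Cy5 on array 2. The labels describe 2 cultures and 4 arrays for a condition and do not say whether the arrays used here share a culture, so the spread between them may be technical. No wild-type array was used here, and no ratio below can be assigned to the mutation. Nor can ratios of 2 RNAs of 1 strain check the mating type of the cells: 5 of 7 marker genes of type a had both values, with a median log2 ratio of −0.62, and 1 of 4 markers of type alpha, with −0.46.

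The labels do not say which RNA is on top of the deposited ratios. Channel 1 is Cy5 on both arrays per the labels, which would give opposite signs for a treatment effect unless the ratios had been turned. The columns correlated positively across the 2738 features (Pearson's r of 0.48 and Spearman's rho of 0.34, over genes, which are no independent replicates). The ratios are read here as already turned to Congo Red over untreated, so that a positive log2 ratio stands for a higher transcript level with Congo Red. This reading is an assumption. A dye effect shared by unturned columns could also give a positive correlation, and this was not tested. If the ratios had been turned the other way, every sign below would change. If they had never been turned, the treatment would lie in the difference between the arrays, and those values are given for each member below. Features with both values had a median ratio of −0.27 on array 1 and −0.18 on array 2, and array 1 was the wider of the arrays, with an SD of 0.99 over its 2832 values, while array 2 had an SD of 0.68 over 3440 values.

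Pir proteins pass through the secretory pathway, where the protease Kex2 removes a propeptide and mannosyltransferases add short O-linked chains, before an alkali-sensitive bond forms between a glutamine of the internal repeats and β-1,3-glucan. They strengthen the wall and limit its permeability. Their genes are known as outputs of the cell wall integrity pathway, in which membrane sensors act through Rho1, Pkc1 and a kinase cascade on Slt2 and its transcription factor Rlm1. PIR3 is widely used as a reporter of that pathway, PIR1 and PIR3 are also known to peak around the end of mitosis, and HSP150 is known for its induction by heat.

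All 4 members had a positive ratio on both arrays, a pattern shown by 15.9% of the 2738 features with both values. PIR3 had the highest ratio of the family on each array. PIR1 was high on array 1 and the lowest of the family on array 2, and HSP150 and CIS3 had modest ratios that were close on both arrays. Of the 2 control features, left out of all counts, 3XSSC had 0.48 on array 1 and 0.51 on array 2. That exceeded HSP150 on both arrays, CIS3 on array 1 and PIR1 on array 2. The other control, Arabidopsis, had −2.52 on array 1 and 0.53 on array 2. Because the median of all features lay below 0, the members were also set against that median. All 4 lay above it on both arrays, as did 29.3% of features. The median of the 4 members was 0.99 on array 1, 0.52 on array 2 and 0.65 in the mean of the arrays, while the median of all features in the mean of the arrays was −0.24. The limma test of the mean ratio against 0 called none of the 4 at a Benjamini-Hochberg adjusted p under 0.05. It called 0% of all features, with a smallest adjusted p of 0.123, so that threshold does not separate the family from other genes. At an unadjusted p under 0.05 limma gave 1 of the 4, PIR3, against 6.28% of features on the positive side.

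**Figure D1:**
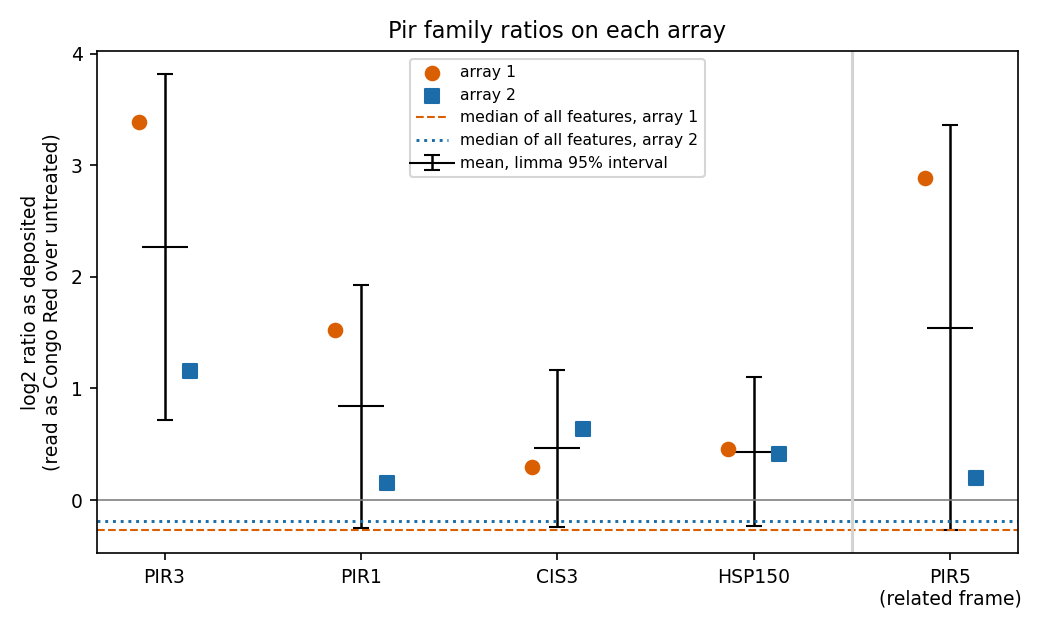
Log2 ratios of the 4 Pir family members and of the related frame PIR5 on array 1 (circles) and array 2 (squares), with the mean of the arrays and its limma 95% interval. Dashed and dotted lines mark the median of all features on each array; every symbol lies above 0, and PIR3 has the highest value of the 4 members on both arrays.

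PIR3, the pathway reporter, had a log2 ratio of 3.39 on array 1 and 1.15 on array 2. These are ratios of 10.4 and 2.22 on the linear scale, both positive but far apart. PIR3 ranked 13 from the top of the 2832 features of array 1 and 89 of the 3440 features of array 2. Its mean was 2.27 ± 1.58 (SD, n = 2), with a limma standard error of 0.58 and a 95% interval of 0.72 to 3.82. The unadjusted p was 0.0142 and the Benjamini-Hochberg adjusted p over all features was 0.325 with limma. The mean ranked 21 among the 2738 features. The arrays differed by 2.23 for PIR3, a wider gap than 97.7% of features showed, so its size is known less well than its sign on these arrays. Gaps were wider among high ratios, with a median of 0.95 in the 144 features of a mean of at least 1, against 0.43 in all features. Array 1 exceeded array 2 in 74 of the 113 features that passed the positive limit of size given below.

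PIR3 was the only member past a limit of size that asked for a 2-fold mean or more and for 1.5-fold or more, in one direction, on each array. That limit took 4.13% of features as positive and 2.81% as negative. The other three fell short on the mean, and also on array 1 for CIS3, on array 2 for PIR1 and on both for HSP150. With the mean limit lowered to 1.5-fold and only the same sign asked of each array, 2 members passed, PIR3 and PIR1, against 8.4% of features on the positive side.

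PIR1, a repeat-bearing wall protein of the same type as Pir3, had a log2 ratio of 1.53 on array 1 and 0.16 on array 2. The ratio was thus 2.88 on array 1 and 1.11 on array 2 on the linear scale, so a change of over 2-fold appeared on array 1 alone. The ranks were 125 from the top on array 1 and 663 on array 2. Relative to the median of each array PIR1 stood at 1.79 on array 1 and 0.34 on array 2. Its mean of 0.84 ± 0.97 (SD, n = 2) had a limma standard error of 0.41 and a 95% interval of −0.25 to 1.93, which includes 0. The adjusted p was 0.418 with limma. The gap between the arrays of 1.37 was wider than that of 91.2% of features. Taken singly, array 1 put 2 members, PIR3 and PIR1, at 2-fold or more, as it did 7.77% of its features, and array 2 put PIR3 alone there, as it did 3.37% of its features.

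HSP150, a secretory glycoprotein induced by heat, had a log2 ratio of 0.46 on array 1 and 0.41 on array 2. The arrays nearly coincided, with a gap of 0.046 that was narrower than that of all but 6.06% of features. The mean was 0.44 ± 0.03 (SD, n = 2), a ratio of 1.35 on the linear scale. The limma standard error of 0.25 was far above what that SD alone would give, because limma moderates the spread of each gene toward that of all genes, and the 95% interval was −0.23 to 1.10. The adjusted p was 0.469 with limma. Relative to the median of each array HSP150 stood at 0.72 on array 1 and 0.60 on array 2.

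CIS3, whose product is a Pir protein with a single repeat, had a log2 ratio of 0.29 on array 1 and 0.63 on array 2. It was the only member with the higher ratio on array 2. Its mean was 0.46 ± 0.24 (SD, n = 2), a ratio of 1.38 on the linear scale, with a 95% interval of −0.24 to 1.16 and an adjusted p of 0.466 with limma. Relative to the median of each array it stood at 0.56 on array 1 and 0.82 on array 2. CIS3 ranked 239 from the top on array 2, above HSP150 at 377 and PIR1 at 663.

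In order of the mean ratio the members ran PIR3, PIR1, CIS3, HSP150. Of the 6 pairs of members, the 3 that include PIR3 kept their order on both arrays, and the other three changed it. PIR3 exceeded PIR1 by 1.86 on array 1 and 1.00 on array 2, a difference of 1.43 ± 0.61 (SD, n = 2) on the log2 scale. PIR1 exceeded CIS3 by 1.23 on array 1 and lay below it on array 2 (difference −0.48), for a mean of 0.38 ± 1.21 (SD, n = 2). CIS3 and HSP150 differed by 0.03 ± 0.27 (SD, n = 2). PIR3 exceeded HSP150 by 1.83 ± 1.55 and CIS3 by 1.81 ± 1.82 (SD, n = 2). PIR3 minus PIR1 and PIR3 minus HSP150 were thus larger than the SD between arrays, and PIR3 minus CIS3 was not, nor was any pair without PIR3. An exact test by sign changes over 2 arrays cannot give a two-sided p below 0.5, so no p is given for the pairs. The family members resemble each other in sequence, and hybridisation of one transcript to the feature of another was not tested.

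**Figure D2:**
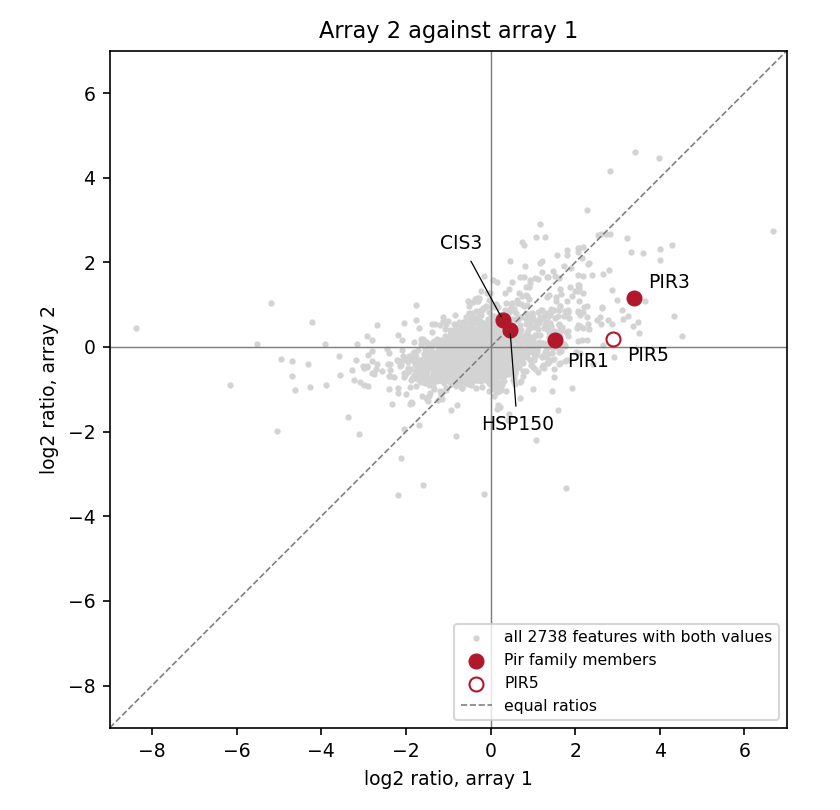
Log2 ratio on array 2 against that on array 1 for the 4 Pir family members, for PIR5 (open circle) and for all 2738 features with both values (grey), with a dashed line of equal ratios. PIR3, PIR1 and PIR5 lie to the right of the line, toward array 1, while HSP150 and CIS3 lie close to it.

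The other reading takes both columns as Cy5 over Cy3, centred and not turned, and gives the members other values. PIR3 gave −1.16 (standard error 1.53), PIR1 −0.73 (standard error 0.69), HSP150 −0.06 (standard error 0.46) and CIS3 0.13 (standard error 0.47). In that reading none passed the limit of size, which took only 16 of 2738 features, and the adjusted p was 1.00 with limma for each. PIR1, HSP150 and PIR3 thus took the opposite sign and CIS3 did not. PIR5, a frame related in sequence, gave −1.39 in that reading.

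The 4 genes lie as 2 adjacent pairs on chromosomes XI and X in the gene table of assembly R64. No build is named for the array, so coordinates are not given. PIR1 and PIR3 stand side by side on chromosome XI and, by the strand letters of their names, read away from each other, sharing the stretch between their starts. HSP150 and CIS3 stand side by side on chromosome X and read toward each other. On the far side of HSP150, and reading away from it, lies PIR5 (YJL160C), a frame related in sequence to the Pir genes and not among the 4 members. PIR5 had a log2 ratio of 2.89 on array 1 and 0.20 on array 2, with a mean of 1.54 ± 1.90 (SD, n = 2) and an adjusted p of 0.392 with limma. Like PIR1, it was high on array 1 and near 0 on array 2, and its gap of 2.69 was wider than that of 98.6% of features.

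Few of the surrounding genes had values on both arrays. Of 12 further annotated genes within 3 places of a member, PIR5 among them, 10 had a feature, 5 had both values and 2 were positive on both arrays, PIR5 and FAR1, where all features gave 15.9%. FAR1, an inhibitor of the cyclin-dependent kinase in pheromone arrest, lies next to CIS3 and had 0.22 on array 1 and 0.11 on array 2. SSY5, a protease of amino acid sensing, had −0.67 on array 1 and −0.33 on array 2. FMP33, next to PIR5, had −1.55 on array 1 and −0.04 on array 2. Thus the genes beside PIR5, HSP150 and CIS3 on chromosome X were slightly positive or negative.

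Around PIR1 and PIR3 few values were present. ELF1, a transcription elongation factor gene, had −0.13 on array 1 and −0.43 on array 2. KDX1, a paralogue of SLT2 and a known wall stress gene that lies beyond YKL162C from PIR3, had −1.51 on array 1 and no value on array 2. FBP26, a fructose-2,6-bisphosphatase gene near CIS3, had −0.60 on array 2 alone. TPK3, MCD4 and YKL162C had no value, and the noncoding YNCK0005C and YNCJ0002C had no feature.

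**Figure D3:**
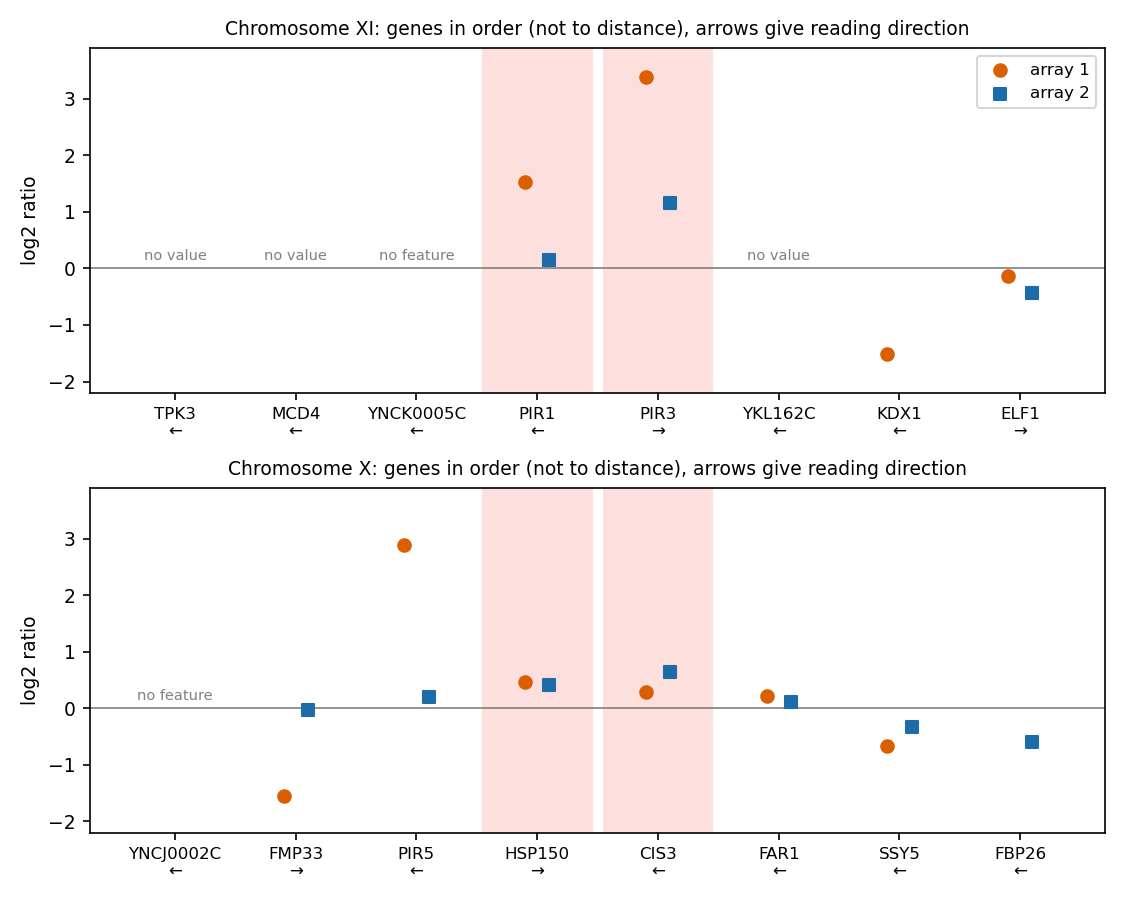
Log2 ratios on array 1 (circles) and array 2 (squares) of the Pir family members (shaded) and of the genes within 3 places of them, in chromosome order and not to distance, with arrows for the reading direction. PIR3 and PIR1 stand above ELF1 and KDX1 on chromosome XI, and PIR5, HSP150 and CIS3 above SSY5 and FMP33 on chromosome X.

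The genes whose pair of ratios was most like each member were found by the Euclidean distance over the 2 arrays, which describes these arrays only. Only features matched to the gene table and outside the family were searched. PIR3 had its nearest features in SSC1, a mitochondrial Hsp70 gene (distance 0.268, ratios 3.64 on array 1 and 1.08 on array 2), APE3, a vacuolar aminopeptidase gene (0.394), and PDA1, of the pyruvate dehydrogenase complex (0.403). None of the features searched lay within 0.25 of PIR3, though SSC1 lay just beyond that distance. PIR1 was nearest to COS6 (0.062), YNL190W (0.086) and VMA5, a subunit gene of the vacuolar proton pump (0.114), and 16 features lay within 0.25 of it. HSP150 was nearest to NOP13 (0.020), GND1, a gene of the pentose phosphate pathway (0.022), and VTC4, of polyphosphate synthesis (0.060), and CIS3 to CLN3, a G1 cyclin gene (0.028), GPI16, of the GPI transamidase (0.032), and MAE1, the malic enzyme gene (0.085). HSP150 had 59 and CIS3 37 features within 0.25, so ratios like theirs were common. The distance between HSP150 and CIS3 was 0.277, against 2.11 between PIR3 and PIR1.

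Genes whose products act on Pir proteins on their way into the wall gave mixed ratios. Of 13 listed, 9 had both values, 3 were positive on both arrays and 1 was negative on both, where all features gave 15.9% and 54.5%. Limma called none of them, and at an unadjusted p under 0.05 it gave 2 positive and 1 negative, where all features gave 6.28% positive and 7.27% negative. Their median was 0.33, against −0.24 for all features. PMT6, of the protein O-mannosyltransferase family, had 1.05 on array 1 and 1.62 on array 2, and PMT2, the partner of Pmt1 in that reaction, had 0.71 on array 1 and 1.01 on array 2. KEX2, the propeptide protease gene, had −0.57 on array 1 and 0.29 on array 2, which differ in sign. GSC2, which encodes the alternative β-1,3-glucan synthase Fks2, had −0.94 on array 1 and −1.50 on array 2, opposite in sign to all 4 Pir genes. FKS1, the main glucan synthase gene, had −0.95 on array 1 and no value on array 2.

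The pathway upstream was poorly measured. Of 17 sensors, regulators, kinases and transcription factors, 4 had both values and 10, MID2 among them, had none. Of the 4, none was positive and 2 were negative on both arrays, where all features gave 15.9% and 54.5%. Limma called none and gave 1 negative at an unadjusted p under 0.05, where all features gave 7.27% negative. The median was −0.26, close to that of all features. A difference from all features was not tested. RLM1, the transcription factor of the pathway, had −0.86 on array 1 and −0.60 on array 2, and BCK1, a kinase of the cascade, −0.36 and −0.29. The GTPase gene RHO1 had 0.004 on array 1 and −0.40 on array 2, and ROM1, an exchange factor for it, −0.41 on array 1 and 0.02 on array 2. SLT2 itself had 0.35 on array 2 alone.

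Of other wall stress reporters, more were positive than negative as deposited. Of 16 listed without the Pir family, 10 had both values, of which 7 were positive and 3 negative on both arrays, where all features gave 15.9% and 54.5%. Limma called none and gave 4 positive and 1 negative at an unadjusted p under 0.05 (6.28% and 7.27% of all features). Their median was 0.59 in the mean of the arrays, at 0.26 on array 1 and 0.91 on array 2. The limit of size took 3 of them as positive and 1, GSC2, as negative, where it took 4.13% and 2.81% of all features. NCW2, a wall protein gene, had 1.67 on array 1 and 1.26 on array 2, and SED1, an abundant wall glycoprotein gene, 1.55 on array 1 and 1.18 on array 2. On both genes the arrays lay closer together than on PIR3, and on array 2 both exceeded the 1.15 of PIR3. CHS3, the main chitin synthase gene, was on the negative side with −0.27 on array 1 and −0.35 on array 2.

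Heat shock genes, set beside HSP150, had a median of 1.22 in 11 of 14 members with both values, at 2.07 on array 1 and 0.48 on array 2. Positive ratios on both arrays were found in 8 (15.9% of all features) and negative ones in 3 (54.5% of all features). Limma called none and gave 6 positive and 1 negative at an unadjusted p under 0.05, where all features gave 6.28% and 7.27%. HSP60, the mitochondrial chaperonin gene, had 2.16 on array 1 and 2.10 on array 2, and SSE1, an exchange factor gene of Hsp70, 2.87 on array 1 and 1.35 on array 2. HSP26 had −0.65 on array 1 and −0.31 on array 2, and HSP30 had −1.25 and −0.44. The HSP150 mean of 0.44 lay inside the range of this list, −0.84 to 2.13, and below its median.

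GPI-anchored and small wall proteins, the other large class of covalently bound wall proteins, had a median of −0.08 in 15 of 19 members with both values. Of these, 5 were positive on both arrays and 5 negative on both, where the Pir family had 4 of 4 positive and all features gave 15.9% positive and 54.5% negative. Set against the median of each array, 7 lay above it on both arrays and 2 below it on both. The Pir family had 4 of 4 above it and all features gave 29.3% above. The difference between the classes was not tested. Limma called none of the 15 and gave 3 positive and 1 negative at an unadjusted p under 0.05, where all features gave 6.28% and 7.27%. The highest were NCW2 and SED1, and the lowest were PRY3, with −3.10 on array 1 and −0.82 on array 2, and FIT1, an iron-related wall protein gene with −2.05 on array 1 and 0.57 on array 2. Several genes stand in more than 1 of these lists, so the lists are not independent of each other. The sides of these lists rest on the reading of the ratios as turned. On centred arrays read as never turned, the heat shock median was −0.35, against 1.44 as turned, and that of the wall stress reporters −0.10, against 0.81. The median of the Pir processing and glucan synthase list was 0.04 in that reading, against 0.56, that of the integrity pathway 0.04, against −0.04, and that of the other wall proteins 0.26, against 0.14.

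**Figure D4:**
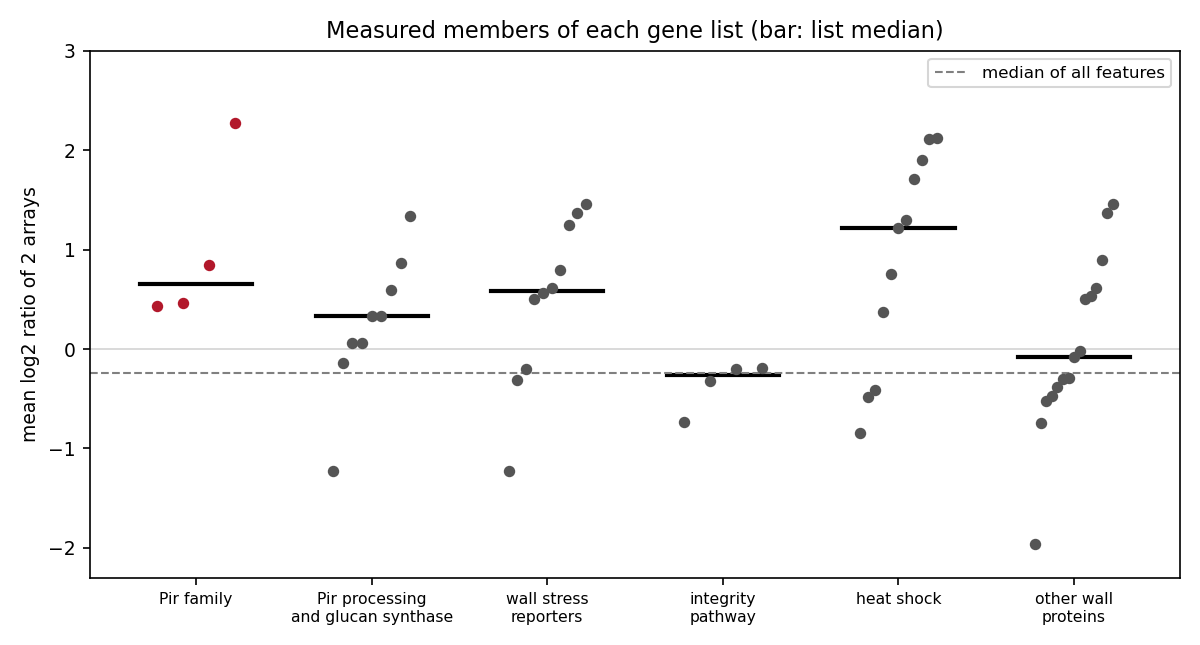
Mean log2 ratio over the 2 arrays for each measured member of the Pir family and of 5 gene lists, with a bar at the median of each and a dashed line at the median of all features (−0.24). All 4 Pir genes lie above 0, the integrity pathway genes lie below it, and the other lists have members on both sides.

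Each member that had a value kept a positive sign under every treatment of the arrays tried, other than the reading as never turned. Every member was positive, and above a negative median, on both arrays. Centring, scaling, robust moderation, the filters and each array alone therefore could not give another sign. Centring each array on its median gave higher values for each member, 2.49 for PIR3, 1.07 for PIR1, 0.69 for CIS3 and 0.66 for HSP150. Their adjusted p after centring was between 0.306 for PIR3 and 0.499 for PIR1 with limma, which called 0 of 2738 features there. The unadjusted limma p was 0.016 for PIR3, 0.0685 for PIR1, 0.0467 for CIS3 and 0.0485 for HSP150. The share of all features under 0.05 after centring was not counted, so these unadjusted p do not set the members apart from other genes. Scaling the arrays to a common spread gave PIR3 2.35 with an adjusted p of 0.107, the smallest of any member under any setting tried. Array 1 decided much of the size of PIR3 and PIR1: on array 2 alone PIR3 stood at 1.15 and PIR1 at 0.16. HSP150 and CIS3 had values from 0.29 to 0.63 on either array alone.

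**Figure D5:**
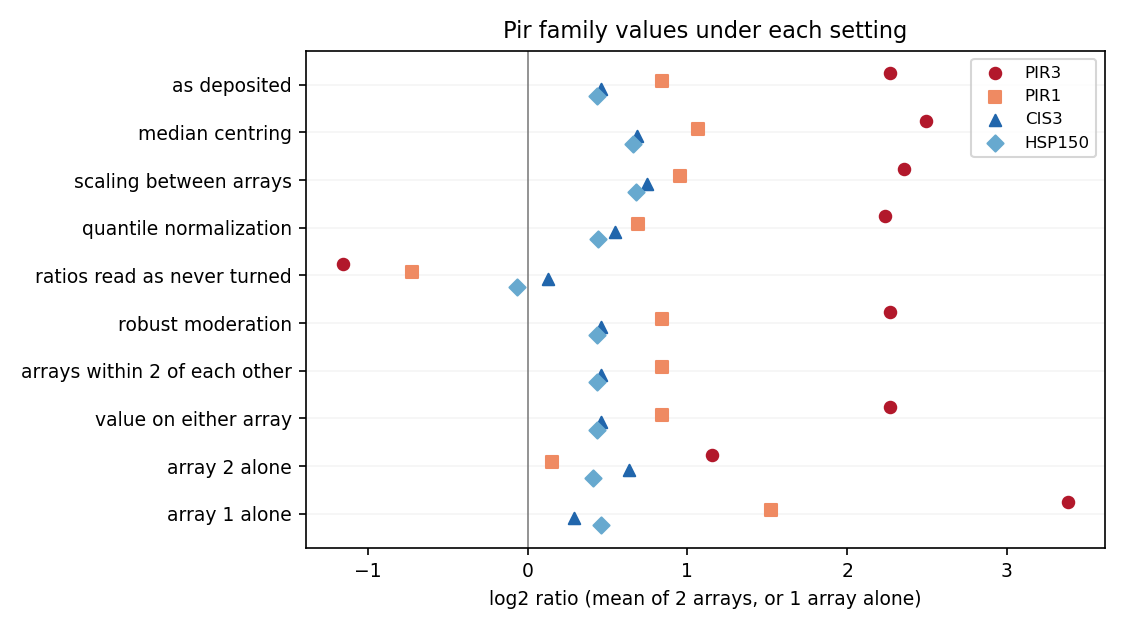
Log2 ratio of PIR3, PIR1, CIS3 and HSP150 (symbols) under each treatment of the arrays, from the mean as deposited down to each array alone. PIR3 lies above 1 in every row that holds it except that of ratios read as never turned, where it lies at −1.16; it has no value where arrays had to lie within 2 of each other.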

How the data were processed

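The deposited file holds 1 log2 ratio per feature and array. The log2 scale was read from the deposited values: raised as powers of 2 they become numbers of 4 decimals (relative tolerance 3e-09) for 2832 of 2832 and 3440 of 3440 values, against 9 and 7 for base 10. RNA was labelled with Cy5 or Cy3 per the labels' protocols. The sources used here name no scanner, no normalization and no reason for empty cells, and without intensities signal over background is unknown.

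Ratios were used as deposited, without the 2 control features. Names came from a gene table of assembly R64 (5654 of 6207 matched). The 2738 features with both values were fitted in R 4.3.3 by limma 3.58.1 (lmFit, then eBayes), with two-sided p adjusted by Benjamini-Hochberg over all of them and a threshold of 0.05; the fit was checked on made-up arrays. Named genes were the members, PIR5, genes within 3 places (KDX1 among them) and the 2 highest and 2 lowest of each list. The 3 nearest annotated features of each member, outside the family, were also named. Others named in the text (FKS1, SLT2) were chosen after their values were seen. Another planned gene list was not analysed here. Members and lists were chosen with earlier results of these data known. Alternatives were centring, scaling, quantile normalization, unturned ratios, robust moderation, filters, other limits and each array alone. Figures used matplotlib 3.10.9 in Python 3.11.15.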

Additional observations from a re-analysis of the deposited data

How the results depend on the processing

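No member passed limma at an adjusted p under 0.05, nor at 0.10, under any setting tried, and with adjusted p from 0.107 to 1.00 this says little about stability. Left alone, 1 array gave PIR3 1.15 or 3.39, PIR1 0.16 or 1.53, HSP150 0.41 or 0.46 and CIS3 0.29 or 0.63. With the ratios read as never turned, PIR3 was −1.16, PIR1 −0.73 and HSP150 −0.064, turned in sign, while CIS3 was 0.13 and kept its sign. A sign in that setting depends on which array is the higher after centring. Centred list medians, looked at in that reading after seeing the data, were −0.35 for heat shock genes, −0.10 for wall stress reporters and 0.040 for the integrity pathway, also turned in sign. Every other setting kept all members that had a value positive, which for all but quantile normalization was fixed in advance. The limit of size took 1 member as deposited and under centring, scaling and quantile normalization. It took 0 with unturned ratios and 0 with the arrays within 2 of each other, which leaves PIR3 out, and 2 with a 1.5-fold mean. Over all features, in either direction, the limit took 190 of 2738 as deposited, 197 centred, 211 scaled and 222 quantile normalized. Fitting the 3534 features with a value on either array left the limit at the same 1 member and 190 features. Only features with both values could pass, so that was fixed in advance. The limit took only 16 of 2738 with unturned ratios, 170 of 2652 with the arrays within 2 and 664 of 2738 with a 1.5-fold mean. Array 1 alone gave 2 members of at least 2-fold, against 7.77% of its features, and array 2 alone 1, against 3.37%. Over all features limma called 62 of 2652 with the arrays within 2 of each other, against 0 of 2738, since that filter removes the widest spreads. No paired analysis was possible because there is a single group of 2 arrays. With 2 arrays the precision of all these values is low, and signal over background is unknown.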
